A study of Homo sapiens with 6 samples.

Results

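Chromatin accessibility at the interferon regulatory factor (IRF) genes was described in HLF, an established human liver cancer cell line, with and without the menin inhibitor SNDX-5613. The set comprised 8 of 20007 protein-coding genes, IRF1, IRF2, IRF3, IRF4, IRF5, IRF7, IRF8 and IRF9, chosen by name. Any ATAC-seq peak site that overlapped 1 of these genes or the 20 kb on either side of it was assigned to the gene, which gave 97 of 166021 sites. A site was the merged span of peaks from the separate libraries, in hg38 coordinates. A site was called a promoter site if its strongest summit, the position of highest read density, lay within 1 kb of any annotated start site of the gene.

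In ATAC-seq the Tn5 transposase inserts adapters where DNA is not covered by nucleosomes, so that a peak marks open chromatin. The 6 libraries comprised 3 from HLF cells that received DMSO, the vehicle, and 3 from HLF cells that received 5 µM SNDX-5613, which blocks the binding of menin to the histone methyltransferase MLL1. HLF is a single line, no genetic change separates the groups, and the study describes a replicate as 1 dish of cells divided between treatment and control, so p-values measure the spread between dishes of 1 line. The labels give 24 h of treatment and batch 1 for every library, whereas the methods of the study describe a longer treatment, and the duration behind these values is uncertain.

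The IRF proteins are transcription factors that share a DNA-binding domain contacting GAAA-type repeats, known as interferon-stimulated response elements. IRF3 and IRF7 become phosphorylated when viral nucleic acid is sensed and turn on type I interferon genes, IRF9 is the DNA-binding subunit of the complex that answers type I interferon, and IRF1 and IRF2 bind overlapping sites as an activator and mainly a repressor, respectively. IRF4 and IRF8 are known from lymphoid and myeloid cells, and IRF5 from inflammatory gene induction in macrophages and dendritic cells.

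SNDX-5613 replicate 3 was far shallower than the other libraries. A pileup is the number of fragments over a base. The background pileup of a library was taken as the most common background value solved at its called summits. In SNDX-5613 replicate 3 it was 0.211, against 0.997 to 1.51 in the other libraries, which amounts to 16.2% of their median. A summit in that library had to exceed its background 14.2-fold to be called, against 4.60-fold to 6.02-fold in the others, and the library held 40568 peak regions against 88026 to 113675. Results are therefore given over all 6 libraries and again over the 5 deeper libraries. The promoters of the mesenchymal genes VIM, ZEB1 and SNAI2 and of the housekeeping genes GAPDH and ACTB had a peak in all 6 libraries, whereas those of the hepatocyte genes ALB, HNF4A and APOA1 had a peak in 0 of 6. The label of a liver tumour line is thus not reflected in open promoters of these hepatocyte markers. The promoters of the blood cell genes PTPRC, SPI1 and CD3E also had a peak in 0 libraries.

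The sequences around the sites that the results turn on are printed first, each 5′ to 3′ along the strand of its gene. Capitals mark 4 motifs that were searched on both strands: the core of an interferon-stimulated response element, written as GAAA, any 2 bases and GAAA; TTCNNNGAA, the gamma-activated site bound by STAT factors; CCAAT, the NF-Y box; and GGGCGG, the GC box of SP and KLF factors. Overlapping matches were counted separately. Of 27303 RefSeq promoters of 300 bases, 3.65% held the first motif, 7.88% the second, 35.7% the third and 44.6% the fourth. The 250 bases upstream of the IRF1 and IRF4 start sites (RefSeq, GRCh38.p14) are shown for contrast, as their base composition is similar. The former lay in the strongest IRF1 site, whereas no library had a peak over the latter. The IRF4 promoter site, called in 1 library, lies further upstream at chr6:391153-391289. The 201 bases around the summits of the upstream IRF1 site and the IRF7 site are shown because the former held a match to the response element and the latter consists of repeats.
IRF1 upstream region, chr5:132490774-132491023, minus strand: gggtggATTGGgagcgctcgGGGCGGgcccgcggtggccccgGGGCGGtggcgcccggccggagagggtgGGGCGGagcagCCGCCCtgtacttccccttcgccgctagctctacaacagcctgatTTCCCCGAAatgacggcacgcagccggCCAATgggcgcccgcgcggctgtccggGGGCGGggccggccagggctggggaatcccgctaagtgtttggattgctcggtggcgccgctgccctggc
IRF4 upstream region, chr6:391502-391751, plus strand: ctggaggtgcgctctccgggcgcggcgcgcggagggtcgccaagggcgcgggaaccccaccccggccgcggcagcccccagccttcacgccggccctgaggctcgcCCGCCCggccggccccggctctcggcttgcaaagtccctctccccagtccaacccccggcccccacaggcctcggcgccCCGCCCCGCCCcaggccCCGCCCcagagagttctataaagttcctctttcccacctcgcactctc
IRF1 upstream site, chr5:132496852-132497052, minus strand: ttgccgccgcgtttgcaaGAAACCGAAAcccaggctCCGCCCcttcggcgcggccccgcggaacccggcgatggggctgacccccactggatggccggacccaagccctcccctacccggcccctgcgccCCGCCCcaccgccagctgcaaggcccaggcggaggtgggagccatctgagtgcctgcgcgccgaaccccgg
IRF7 site in intron 8, chr11:613590-613790, minus strand: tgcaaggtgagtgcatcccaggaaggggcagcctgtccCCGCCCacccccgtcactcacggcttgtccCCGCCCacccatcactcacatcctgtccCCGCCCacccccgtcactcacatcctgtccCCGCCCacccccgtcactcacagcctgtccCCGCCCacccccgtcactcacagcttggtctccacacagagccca
IRF2 site in intron 1, chr4:184449050-184449079, minus strand: tcacccctggTTTCGGTTTCtgttctcagt
IRF9 promoter site, chr14:24161192-24161220, plus strand: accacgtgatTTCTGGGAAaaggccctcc
The last 2 are short stretches around a match, the response element in reverse orientation at IRF2 and a gamma-activated site at IRF9. The promoters of IRF2, IRF3 and IRF7 had no entry in the RefSeq promoter table, and the entry for IRF8 starts 3668 bp from the canonical start used here.

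Open promoters divided the IRF genes into 4 with a promoter peak in every library (IRF1, IRF2, IRF3 and IRF9) and 4 without (IRF4, IRF5, IRF7 and IRF8). Among all protein-coding genes 63.4% had a promoter site in 6 libraries, 16.4% in 1 to 5 libraries and 20.1% in none. The 97 sites comprised 19 promoter, 32 gene body and 46 flank sites. A peak was present in all 6 libraries at 24 sites and in 1 library at 35. The 15 sites with a peak in 5 libraries all missed it in SNDX-5613 replicate 3. The share of IRF sites found in 1 library was 36.1%, against 36.2% of all sites, and the share found in 6 libraries was 24.7%, against 20.1%. Of the 97 sites, 22 lay within 1 kb of the start of another gene, including 11 of the 24 shared by all libraries, where a peak cannot be assigned to one gene or the other. The consensus regions that the authors built for each group covered 44 IRF sites in both groups, 4 in DMSO only, 7 in SNDX-5613 only and 42 in neither. The shares over all sites were not computed for these consensus counts, so they are no result about the IRF genes.

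**Figure D1:**
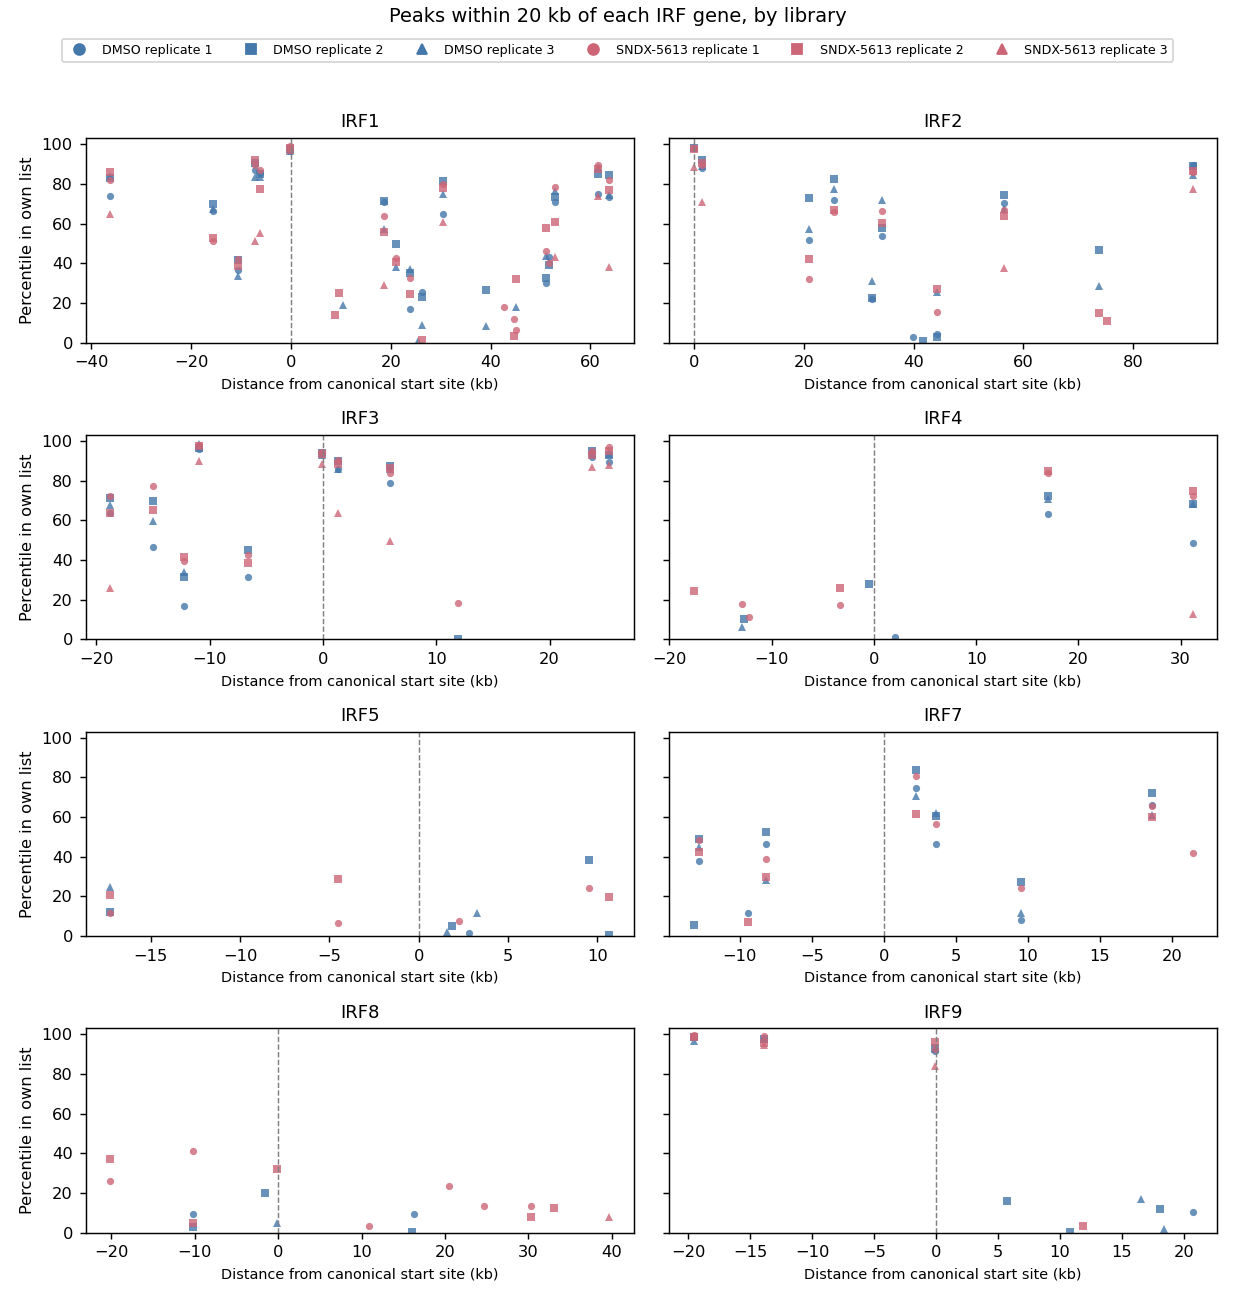
Peaks within 20 kb of each of the 8 IRF genes, 1 panel per gene. The x axis gives the distance of the summit from the canonical start site in kb along the gene's strand and the y axis the percentile of a peak's -log10 p within its own library's list. Blue symbols are the 3 DMSO libraries and red symbols the 3 SNDX-5613 libraries. Peaks near the start (dashed line) are high at IRF1, IRF2, IRF3 and IRF9, whereas the peaks at IRF5 and IRF8 stay low.

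Peak strength was compared between the groups at the 24 shared sites to ask whether SNDX-5613 altered accessibility of the IRF genes. Each site was given, in each library, the percentile of its -log10 p among the 33405 sites that every library called, which removes the effect of list length and scale but keeps only the order of sites. The groups did not overlap at 3 of 24 IRF sites, all higher with SNDX-5613 and 0 lower. Over all shared sites, 8.54% were higher without overlap, 8.08% lower, and 16.6% either. The IRF share of 12.5% was thus near the background and is no result about these genes. The difference was positive at 12 IRF sites and negative at 12, with a median of 0.101 percentile points against -0.0933 over all shared sites, and a median size of 4.06 against 4.35 points. limma, fitted to the normal scores of the ranks at all shared sites, called 0 of 24 IRF sites at an adjusted p under 0.05, and the lowest adjusted p was 0.356. At an unadjusted p under 0.05 there were 3 IRF sites, against 10.1% of all sites. Over all sites limma called 65 higher (0.195%) and 9 lower (0.0269%).

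**Figure D2:**
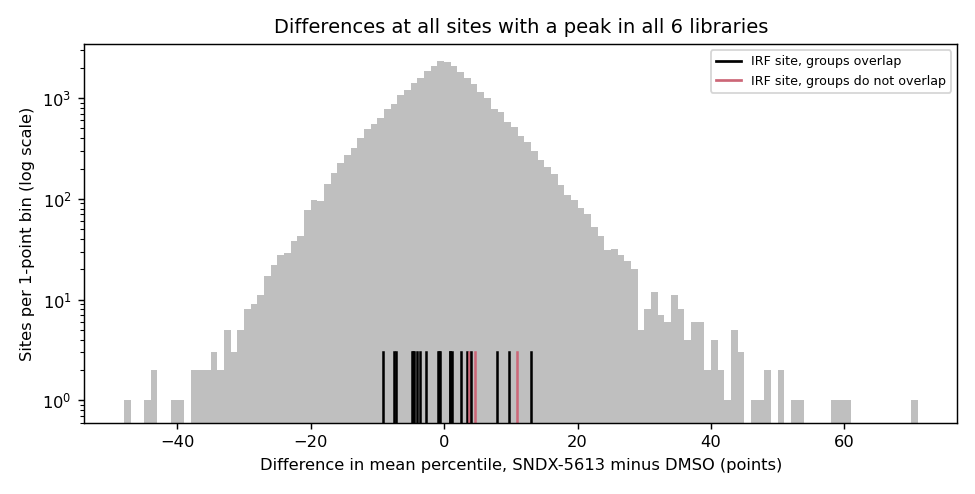
Difference in mean percentile between SNDX-5613 and DMSO at all 33405 sites with a peak in every library (grey bars, counts on a log scale). Ticks mark the 24 IRF sites, red where the groups do not overlap, and lie on both sides of 0 within the bulk of the distribution.

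IRF1, an interferon-inducible activator, had 24 sites, the most of the 8 genes. Its GENCODE gene on chr5:132440440-132508719 (minus strand) spans 68280 bp because long alternative transcripts run past both ends of the canonical one. The site over the canonical promoter (chr5:132490220-132491202, summit at -96 bp) lay at the 91.2, 92.0 and 90.1 percentile in DMSO replicates 1 to 3 and at the 97.2, 94.0 and 96.2 percentile in the SNDX-5613 replicates. Every SNDX-5613 library was above every DMSO library. The means were 91.1 ± 0.941 and 95.8 ± 1.66 (SD, n = 3), a difference of 4.69 percentile points with an exact two-sided permutation p of 0.1, the smallest that 3 against 3 libraries allow. The limma adjusted p was 0.423. The recovered fragment pileup at the summit was 187, 261 and 237 in DMSO and 266, 242 and 45 in SNDX-5613, so that the unscaled pileups of the groups overlapped, and the last value belongs to the shallow library. The groups also overlapped when peaks were ranked within the whole list of each library. The gamma-activated site printed in capitals lies at -124 to -116 from the start, and the same 250 bases hold 5 GC boxes and 2 CCAAT boxes.

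A second IRF1 promoter site lay upstream at -6179 bp, 485 bp from an alternative start (chr5:132495775-132497319). Its percentiles were 63.1, 51.5 and 53.5 in DMSO and 59.8, 39.8 and 46.7 in SNDX-5613, which overlap, with a difference of -7.27. Without SNDX-5613 replicate 1 the difference was -12.8, without SNDX-5613 replicate 2 it was -2.77, without SNDX-5613 replicate 3 it was -4.19 and without DMSO replicate 1 it was -3.68. This site carried the match GAAACCGAAA in its summit window, and its direction turned under ranking by fold enrichment (4.27). The third IRF1 promoter site, at 18623 bp near an alternative start inside the gene, lay at 34.8, 23.9 and 13.6 in DMSO and 15.6, 10.8 and 18.3 in SNDX-5613, again with overlap. The strongest IRF1 site away from any promoter was at -7089 bp, with percentiles of 66.3, 67.9 and 53.8 in DMSO and 66.7, 76.9 and 42.3 in SNDX-5613, so that the SNDX-5613 libraries spanned the DMSO range.

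IRF2, which binds the same elements as IRF1 and mainly represses, lies on chr4:184385702-184474558 (minus strand). Its main promoter site (summit at -141 bp, shared with the divergent transcript IRF2-DT) was among the strongest, at 94.9, 93.4 and 95.4 in DMSO and 93.9, 93.5 and 85.8 in SNDX-5613. The low value was that of the shallow library, and the groups overlapped, with a difference of -3.55. A neighbouring promoter site at 1440 bp lay at 69.2, 73.4 and 68.7 in DMSO and 65.8, 72.3 and 65.1 in SNDX-5613. The direction of both sites turned under ranking by fold enrichment (10.0 and 9.27). A site downstream of IRF2, at 90881 bp, was the strongest outside the promoters, with means of 64.4 ± 7.91 in DMSO and 63.5 ± 8.59 in SNDX-5613 (SD, n = 3).

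IRF3, the constitutively present factor of the early antiviral response, is a short gene on chr19:49659569-49665875 (minus strand) in a gene-dense region, and 8 of its 11 sites lay within 1 kb of the start of another gene. The promoter site at -43 bp is shared with the divergent gene BCL2L12. Its percentiles were 83.5, 78.8 and 79.5 in DMSO and 82.5, 80.6 and 86.1 in SNDX-5613, which overlap. A further promoter site at 1283 bp lay at 63.6, 66.3 and 59.7 in DMSO and 69.3, 66.0 and 56.8 in SNDX-5613. The site with the largest difference among the 3 that did not overlap was 25291 bp downstream, at the promoter of RRAS, a Ras-family GTPase gene. It lay at 71.7, 76.0 and 80.5 in DMSO and 89.6, 85.8 and 85.5 in SNDX-5613, every SNDX-5613 library above every DMSO library. The difference was 10.9 percentile points (exact two-sided permutation p of 0.1, limma adjusted p 0.356), and the groups overlapped under ranking by summit pileup and within the own list. The strongest IRF3 site outside its promoters, at -10971 bp, is the promoter of PRMT1, an arginine methyltransferase gene, at 90.3 ± 4.11 in DMSO and 91.4 ± 3.07 in SNDX-5613 (SD, n = 3).

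IRF9 lies on chr14:24161234-24168043 (plus strand). Its promoter site at -74 bp had percentiles of 78.1, 77.0 and 79.4 in DMSO and 76.5, 89.5 and 80.6 in SNDX-5613. SNDX-5613 replicate 1 was below every DMSO library and the other two were above, so the groups overlapped. The TTCTGGGAA match printed above begins 11 bp from the summit. The strongest sites of the neighbourhood were promoters of other genes. The site at -19591 bp, at the promoter of EMC9, lay at 96.4, 95.6 and 90.8 in DMSO and 98.3, 96.4 and 99.2 in SNDX-5613, a difference of 3.70 with no overlap (exact two-sided permutation p of 0.1, limma adjusted p 0.439). The lowest SNDX-5613 and the highest DMSO value differed by less than the last digit shown. Under ranking by summit pileup, and when a peak had to cover 50% of the site, the groups overlapped. The site at -13912 bp, at the promoters of PSME2 and RNF31, had means of 93.3 ± 0.610 and 92.7 ± 4.44 (SD, n = 3).

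**Figure D3:**
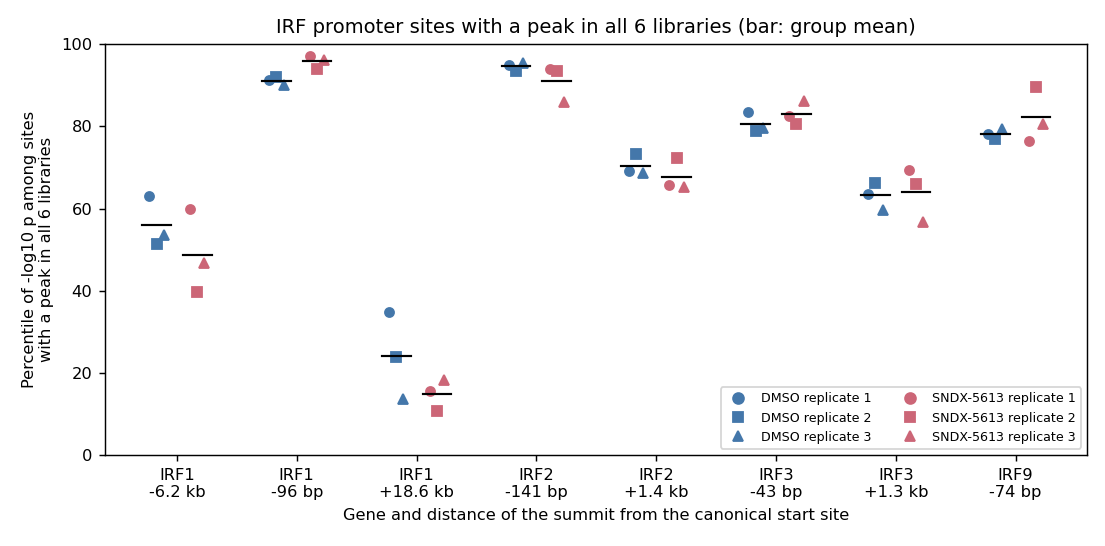
Percentile of -log10 p (y axis, 0 to 100) at the 8 IRF promoter sites with a peak in all 6 libraries, with 3 DMSO libraries in blue and 3 SNDX-5613 libraries in red. Horizontal bars are group means. The groups are separate at the IRF1 site at -96 bp and overlap at the other sites.

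The canonical start of the remaining genes was mostly without a peak in HLF. Within 1 kb of the canonical start, IRF4 had a peak in 1 library, IRF8 in 2, and IRF5 and IRF7 in 0. The IRF4 promoter site (-513 bp) was called only in DMSO replicate 2, at a pileup of 12. The 300 bases around its start were 74.0% G and C with 32 CpG dinucleotides, and those of IRF1 73.7% with 36. The start region of IRF5 was 70.3% G and C with 25 CpG dinucleotides and 4 GC boxes. Peak calls at this depth cannot show that the promoters were shut, as only peaks above the calling limit are listed.

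IRF5, on chr7:128937457-128950038 (plus strand), had 9 sites, of which 7 were promoter sites because many alternative starts are annotated. Each of these was called in 1 or 2 libraries, and pileups over all IRF5 peaks ran from 6 to 15. Its site at -17263 bp was called in 2 DMSO and 2 SNDX-5613 libraries. IRF8, on chr16:85899116-85922606 (plus strand), had 12 sites with pileups of 3 to 14, and its promoter site at -173 bp was called in DMSO replicate 3 at a pileup of 7 and in SNDX-5613 replicate 2 at a pileup of 14. Together IRF4, IRF5 and IRF8 had 30 sites, of which 26 were found in 1 or 2 libraries. Over all 8 genes, a total that includes these 30, the count was 47 of 97. The share of all sites found in 1 or 2 libraries was not computed, so the count is descriptive only.

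IRF7, the interferon-inducible partner of IRF3, lies on chr11:612553-615983 (minus strand). Its only promoter site was in intron 8 at 2260 bp, 99 bp from an alternative start, and was called in every library but SNDX-5613 replicate 3. Pileups there were 57, 87 and 61 in DMSO and 73 and 47 in SNDX-5613, so the groups overlapped. Among the 5 deeper libraries its percentiles were 63.4, 69.7 and 53.3 in DMSO and 65.8 and 39.1 in SNDX-5613. The printed sequence repeats with a shift of 30 bp, at which 67.8% of its bases are identical to themselves against a median of 34.9% over other shifts, and it holds 5 GC boxes. No mapping filter is stated for these reads, and the part of the repeats in this peak was not tested. The strongest other site near IRF7 was at 18635 bp, with pileups of 34, 41 and 33 in DMSO and 32 and 31 in SNDX-5613.

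Over the 5 deeper libraries, 39 IRF sites had a peak in each, and percentiles were recomputed among the 59985 sites with that property. The groups did not overlap at 11 IRF sites, with 7 higher and 4 lower with SNDX-5613. The background was 14.3% higher, 14.4% lower and 28.7% either, and the IRF share of 28.2% lay near it. The exact permutation test of 2 against 3 libraries cannot give a two-sided p below 0.2. limma called 1 IRF site at an adjusted p under 0.05, where 0.358% of all sites were called higher and 0.217% lower. At an unadjusted p under 0.05 there were 6 IRF sites, against 12.3% of all sites.

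**Figure D4:**
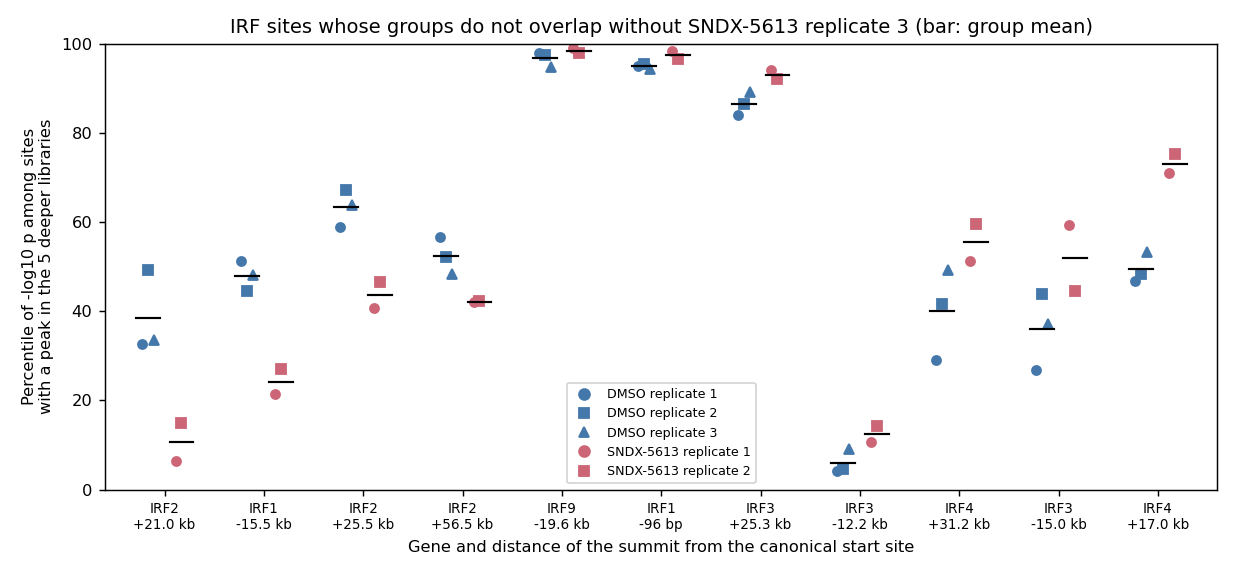
Percentile of -log10 p among sites with a peak in the 5 deeper libraries (y axis, 0 to 100) at the 11 IRF sites whose groups do not overlap there, ordered by the difference. Blue symbols are 3 DMSO libraries, red symbols 2 SNDX-5613 libraries and bars group means. Sites in IRF2 intron 1 and upstream of the canonical IRF1 start are lower with SNDX-5613, and the IRF4 site at 17.0 kb is at the other end.

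The called site lay at the 3′ end of IRF4, a lymphoid and melanocytic factor gene on chr6:391739-411443 (plus strand). It spanned chr6:408651-409099, in the 3′ untranslated part of exon 9, 17020 bp from the start. Its pileups were 25, 34 and 35 in DMSO and 58 and 65 in SNDX-5613, and it was not called in SNDX-5613 replicate 3. That library did call the IRF4 site at 31157 bp, at a pileup of 4, where SNDX-5613 replicates 1 and 2 had 40 and 50. It did not call the IRF7 site in intron 8, where they had 73 and 47. The third SNDX-5613 library thus lends the difference no support, and the reason for the missing call was not tested. The percentiles of the called site were 46.9, 48.3 and 53.3 in DMSO and 71.0 and 75.3 in SNDX-5613. Both deeper SNDX-5613 libraries were above every DMSO library. The difference was 23.7 percentile points with a limma adjusted p of 0.0432. The adjusted p was 0.301 under ranking by fold enrichment and 0.0624 to 0.319 when 1 further library was left out, so the call rests on each of the 5 libraries. The size of the difference changed less, as the normal score difference was 0.63 in the 5 libraries, 0.74 under ranking by fold enrichment and 0.55 to 0.68 without 1 further library. The call held under ranking by summit pileup (limma adjusted p 0.00910) and with the stricter peak threshold (0.0473). Ranking by pileup was chosen after the values were seen, and no alternative for this site was planned in advance. The other IRF4 site in all libraries, at 31157 bp, moved in the same direction among the deeper libraries, at 29.1, 41.6 and 49.2 in DMSO and 51.3 and 59.6 in SNDX-5613 (limma adjusted p 0.411), whereas over all 6 libraries its groups overlapped. The IRF4 promoter had no peak in either of these SNDX-5613 libraries.

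The lower sites were in IRF2 and upstream of the canonical IRF1 start, within the annotated gene. A site in IRF2 intron 1, at 20978 bp, had pileups of 29, 51 and 36 in DMSO and 15 and 21 in SNDX-5613. Its percentiles were 32.7, 49.3 and 33.5 in DMSO and 6.35 and 15.1 in SNDX-5613, a difference of -27.8 (limma adjusted p 0.118). The next site in the same intron, at 25506 bp and 174 bp from an alternative start, had pileups of 47, 74 and 65 in DMSO and 33 and 38 in SNDX-5613. Its percentiles were 58.9, 67.3 and 63.8 in DMSO and 40.8 and 46.7 in SNDX-5613, a difference of -19.6 (limma adjusted p 0.157), and it holds the response element TTTCGGTTTC printed above. Neither difference passed the test, although both did under ranking by summit pileup (limma adjusted p 0.0194 and 0.0125), an alternative chosen after the values were seen. Another site in intron 1, at 32402 bp, was called in 3 DMSO and 0 SNDX-5613 libraries at pileups of 15, 15 and 21. That pattern was found at 1 of 97 IRF sites and at 1953 of all 166021 sites, a similar share. The missing calls include that of the shallow SNDX-5613 replicate 3, which carries little weight at a weak site. In intron 5, at 56462 bp, the percentiles were 56.7, 52.2 and 48.3 in DMSO and 42.0 and 42.2 in SNDX-5613 (limma adjusted p 0.587). The IRF2 promoter differed by -0.510 points in the same libraries, with overlap. The IRF1 site at -15514 bp had pileups of 35, 40 and 42 in DMSO and 24 and 28 in SNDX-5613, with percentiles of 51.2, 44.5 and 48.1 against 21.4 and 27.0 (difference -23.7, limma adjusted p 0.180).

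The other higher sites repeated or neighboured those above. The IRF1 promoter differed by 2.49 points (limma adjusted p 0.315), the RRAS promoter by 6.53 (0.163) and the EMC9 promoter by 1.72 (0.454). Upstream of IRF3, the site at -14992 bp differed by 16.0 points (limma adjusted p 0.424) and the site at -12227 bp near PRMT1 by 6.54 (0.696), with percentiles of 4.18, 4.72 and 9.20 in DMSO and 10.8 and 14.4 in SNDX-5613 at the latter, the lower end of the list.

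Presence of a peak also differed at a few weak sites. A peak in at least 2 SNDX-5613 and 0 DMSO libraries was found at 5 of 97 IRF sites, against 2.57% of all sites. These were the sites at 44616 bp in IRF1, -3308 bp at IRF4, -4509 bp at IRF5, and -20094 and 30317 bp at IRF8, with pileups of 7 to 14. A peak in at least 2 DMSO and 0 SNDX-5613 libraries was found at 2 of 97 IRF sites, against 4.78% of all sites. These were the IRF2 site at 32402 bp and an IRF1 site at 39115 bp with pileups of 11 and 9. The reverse of the IRF2 pattern, a call in every SNDX-5613 library and in 0 DMSO libraries, was seen at 0 IRF sites and at 244 of all 166021 sites. The shallow library is among the SNDX-5613 libraries in each of these rules, so counts in opposite directions cannot be compared.

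Motifs in the 201 bases around the summit were described without a test. Of the 24 sites in 6 libraries, 2 held the response element, 4 a gamma-activated site, 8 a CCAAT box and 9 a GC box. Among all promoter sites in 6 libraries 1.5%, 3.47%, 31.3% and 61.8% held these motifs, and among other sites in 6 libraries 2.35%, 5.94%, 23% and 14%. Of the 47 sites in 1 or 2 libraries, 5 held a GC box. The median share of G and C was 60.4% at the 24 sites and 56.2% at the 47.

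The surrounding interferon pathway was examined over 39 genes. A promoter site was present in 6 libraries at 31 of them, in 1 to 5 at 4 and in 0 at 4. Among all protein-coding genes these shares were 63.4%, 16.4% and 20.1%, and the difference was not tested. All 6 kinases that act on IRF factors and all 8 cofactors and inhibitors were in the first group. Of the 4 ligands IFNB1, IFNE and IFNG had a promoter peak in 0 libraries and IFNL1 in 1, and the interferon lambda receptor gene IFNLR1 had none. Among the sensors and adaptors, CGAS and TLR3 had a promoter peak in 5 libraries. MYD88, an adaptor through which IRF7 and IRF5 can be activated, had a promoter peak in 1. Among the 31 genes the percentiles did not overlap at 5, with 1 higher and 4 lower, which is near the 16.6% of all shared sites. limma called 0 of 31, and 1 had an unadjusted p under 0.05. The median difference was -1.21 points. JAK2, a kinase of the interferon gamma receptor, was higher, at 67.0, 73.7 and 72.0 in DMSO and 73.8, 76.4 and 82.7 in SNDX-5613 (limma adjusted p 0.619). IFNAR1, a chain of the type I interferon receptor, was lower, at 97.3, 94.8 and 93.7 in DMSO and 92.5, 89.9 and 86.9 in SNDX-5613 (limma adjusted p 0.423). TRIM21, a ubiquitin ligase of IRF factors, differed by -7.80 points (limma adjusted p 0.496). IFNGR2, a chain of the interferon gamma receptor, differed by -4.04 (limma adjusted p 0.699). TRAF3, an adaptor of nucleic acid sensing, differed by -3.37 (limma adjusted p 0.714). IFNGR2 and TRAF3 lay at the lower end of the list. Mean percentiles were 8.83 in DMSO and 4.79 in SNDX-5613 at IFNGR2, and 6.49 and 3.12 at TRAF3.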

How the data were processed

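Per the labels and the study's methods, the authors trimmed reads with Trim Galore 0.6.7, aligned them to hg38 with Bowtie2 2.3.4.1, marked duplicates with Picard 2.20.0, called peaks in each library with MACS2 and merged replicates into 1 consensus set per group with RMSPC. The sources used here do not say whether reads were shifted for Tn5, filtered on mapping quality or blacklisted regions, or freed of duplicates. The deposited lists give the authors' fold enrichment over the local background (a ratio), -log10 p, -log10 q and a score derived from the q-value, which was not used, and the deposited consensus sets give a combined -log10 p that was not used beyond the regions it belongs to. Read counts were not analysed here, so the DESeq2 test of the methods was not fitted.

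Regions overlapping by 1 bp were merged into sites, matched to GENCODE release 44. Sites were ranked by -log10 p, and group means of percentiles were tested with exact two-sided permutations and with limma 3.58.1 (R 4.3.3) on normal scores with Benjamini-Hochberg adjustment over all shared sites, after testing on simulated data. Pileups were solved from fold and p, which gave whole numbers for 100% of the summits solved in each library (tolerance 0.01 in -log10 p). All promoter sites, sites whose groups did not overlap or were called, sites in at least 2 libraries of only 1 group and the strongest other site of each gene were named. The members and lists were chosen with earlier results of these data known. The study divided 1 dish per replicate between treatment and control, but whether replicate numbers mark the dishes was not stated, and same-numbered libraries did not deviate together (r of 0.0164, 0.000532 and 0.00698 over sites), so the main fit has no block and the blocked fit is an alternative. Some marker and pathway genes are not reported here by name. Alternatives were other rankings, thresholds, site definitions and left-out libraries.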

Additional observations from a re-analysis of the deposited data

How the results depend on the processing

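Of 238 values recomputed under an alternative, 172 stayed the same by rule. Counts had to stay within 1.5 times, and percentile differences had to keep their sign. Normal score differences had to keep their sign and their side of an adjusted p of 0.05. Single differences still changed in size (4.69 to 18.3 at the IRF1 promoter by fold enrichment, -3.55 to -0.510 at the IRF2 promoter without SNDX-5613 replicate 3, 4.02 to 0.371 at the IRF9 promoter without SNDX-5613 replicate 2). Of the 97 IRF sites, 61 remained within 5 kb of the genes and 34 with equal numbers of regions per library, and 88 to 96 when 1 library was left out. IRF sites with a peak in every library numbered 14 within 5 kb, 10 when a peak had to cover 50% of the site, and 24 to 39 when 1 library was left out, the highest without SNDX-5613 replicate 3. Non-overlapping higher IRF sites numbered 1 with ranks in the own list (332 of all sites, against 2854), 1 with ranks by summit pileup (3165) and 4 to 7 without 1 library (4127 to 8556). Non-overlapping lower IRF sites numbered 1 by fold enrichment (2280 of all sites, against 2699), 1 in the own list (2567), 1 with a -log10 q of at least 3 (2248), 2 by summit pileup (3305) and 0 to 4 without 1 library (4069 to 8633). By fold enrichment, the difference turned to 10.0 at the IRF2 promoter, to 9.27 at its neighbour and to 4.27 at the upstream IRF1 site. In the own list it turned to -1.33 at the IRF3 promoter, to -6.40 at the IRF3 site at 1283 bp and to -1.57 at the IRF9 promoter. At that IRF3 site, values without 1 library ran from -1.81 to 2.71, with reversals to -0.907 without DMSO replicate 3, -1.81 without SNDX-5613 replicate 1 and -0.143 without SNDX-5613 replicate 2. limma called 0 IRF sites, and 1 without SNDX-5613 replicate 3. Over all sites its 65 higher calls became 0 by fold enrichment, 201 by summit pileup and 14 to 215 without 1 library, and its 9 lower calls 0, 47 and 0 to 130, or 3 with a -log10 q of at least 3. With a replicate block, limma called 63 higher, 10 lower and 0 IRF sites, with a lowest adjusted p of 0.387 at the RRAS promoter. The cause of these shifts was not tested. The 6-library comparison covers only sites that the shallow SNDX-5613 replicate 3 also called, 24 of the 39 IRF sites with a peak in each deeper library.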
